A study of Mus musculus with 6 samples.

Results

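The collagen genes of the mouse eye were taken as every gene row whose symbol consists of Col, a type number, the letter a and a chain number. The rule found 43 genes among the 22692 gene rows of each library. They comprised 11 fibrillar collagen genes, 8 genes of basement membrane collagens and 24 others. RNA had been sequenced from whole eyes of C57BL/6J mice, an inbred laboratory strain, at 2 times of the light phase. The compared groups were eyes taken at 9.0 h and eyes taken at 1.5 h after light onset. Both groups were labelled as female mice aged 4 weeks, neither carried an engineered allele or received a treatment per the labels, and each of the 3 libraries per time was made from pooled RNA of 5 mice.

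Collagens are proteins of the extracellular matrix made of 3 polypeptide chains wound into a triple helix, and most chains are products of separate genes. Fibrillar collagens form the rope-like fibrils that give the sclera its strength and, in thinner and evenly spaced form, keep the corneal stroma clear. Type IV chains form the sheet-like networks of basement membranes such as the lens capsule, Descemet's membrane and the inner limiting membrane. Other types sit on fibril surfaces, form beaded filaments, anchor epithelia or build the lattice of Descemet's membrane, and types II, V/XI and IX make up the fibrils of the vitreous gel. Whole eyes hold all of these tissues, so each value is a sum over them and no transcript can be assigned to cornea, sclera or vitreous alone.

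The promoters of 4 genes are shown because 2 of them carry the most abundant fibrillar transcripts after Col1a1, and the other 2, Col4a1 and Col4a2, start next to each other on opposite strands and can be read together with their chain ratio. Sequences are those of RefSeq on GRCm38.p6, from 250 bases before to 50 bases after the annotated start, read 5′ to 3′ on the strand of the gene. Capitals mark 3 motifs searched on both strands. One is CCAAT, the core of the box of that name. Another is TATAAA, the core of the TATA box, and the last is GGGCGG, the core of the GC box. The stretches are chr6:4505368-4505667 on the plus strand for Col1a2, chr1:45311288-45311587 on the plus strand for Col3a1, chr8:11312777-11313076 on the minus strand for Col4a1 and chr8:11312555-11312854 on the plus strand for Col4a2.
Col1a2: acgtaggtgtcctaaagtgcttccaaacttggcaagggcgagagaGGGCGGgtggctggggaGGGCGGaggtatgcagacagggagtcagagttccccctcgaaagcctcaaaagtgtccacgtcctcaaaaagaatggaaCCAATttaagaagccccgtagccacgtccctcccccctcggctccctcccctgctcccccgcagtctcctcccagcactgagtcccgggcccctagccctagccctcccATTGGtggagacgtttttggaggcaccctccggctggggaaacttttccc
Col3a1: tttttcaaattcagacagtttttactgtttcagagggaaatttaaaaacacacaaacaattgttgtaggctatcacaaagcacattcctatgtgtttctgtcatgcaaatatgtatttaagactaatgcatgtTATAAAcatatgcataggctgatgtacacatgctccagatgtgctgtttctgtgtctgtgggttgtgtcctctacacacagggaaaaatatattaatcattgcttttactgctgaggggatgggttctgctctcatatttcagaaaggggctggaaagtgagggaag
Col4a1: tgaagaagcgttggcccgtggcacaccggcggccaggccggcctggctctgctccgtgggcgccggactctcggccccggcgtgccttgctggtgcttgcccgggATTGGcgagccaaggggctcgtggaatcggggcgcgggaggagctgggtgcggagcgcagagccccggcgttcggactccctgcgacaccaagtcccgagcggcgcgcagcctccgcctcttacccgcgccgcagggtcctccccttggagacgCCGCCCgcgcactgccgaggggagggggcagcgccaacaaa
Col4a2: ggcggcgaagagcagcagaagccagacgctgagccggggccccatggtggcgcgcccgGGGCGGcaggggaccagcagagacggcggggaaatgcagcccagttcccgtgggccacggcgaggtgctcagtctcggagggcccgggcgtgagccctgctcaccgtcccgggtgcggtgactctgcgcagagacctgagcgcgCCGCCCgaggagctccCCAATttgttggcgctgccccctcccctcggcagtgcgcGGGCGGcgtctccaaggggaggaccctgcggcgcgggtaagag

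The Col1a2 promoter held CCAAT and GGGCGG but not TATAAA, and G and C made up 61% of it. The Col3a1 promoter held only the TATA box letters, and G and C made up 37.7% of it. The windows of Col4a1 and Col4a2 shared 78 bases, so their last bases are the same stretch of chromosome 8 read in both directions, and their GC contents were 74% and 73.7%. The table held a promoter for 35 of the 43 genes. CCAAT was found in 12 of them (34.3%) and in 37.4% of all 32851 promoters listed, and TATAAA was found in 5 (14.3%), against 13.6% of all promoters. GGGCGG was found in 22 (62.9%), against 35.7% of all promoters. The collagen promoters were also richer in G and C, with a median above the 52.7% of all promoters, and the share of GGGCGG was not compared at equal GC content. A match of letters is a description and not a binding site.

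The files give RPKM, reads scaled to transcript length and to the total reads of the library. This puts genes and libraries on a common scale, but a value also moves with the abundant transcripts of its library. Library depth in megareads (Mreads), recovered from the steps between low values, was about 31.3, 29.6 and 23.8 Mreads at 9.0 h and 28.7, 12.7 and 12.9 Mreads at 1.5 h. A gene without reads and with a 5 kb transcript could then still hold up to 0.0192 to 0.0472 RPKM (3 reads, counting error only). Transcripts of the Y chromosome were read in 1 library labelled female, 1.5 h replicate 3, where Eif2s3y had 0.781 RPKM, and were listed at 0 in the other 5. Crystallins, the lens proteins, took 41.5%, 46.1% and 43.6% of the summed RPKM at 9.0 h and 31.4%, 37.8% and 44.3% at 1.5 h, lowest in 1.5 h replicate 1. Whether the 3 pools of a time were drawn from separate mice is not stated in the labels. The p-values therefore reflect only library-to-library spread, part of which may be technical. Those of limma use a spread for each gene that is drawn towards the trend over all genes.

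Of the 43 collagen genes, 34 had at least 1 RPKM in 3 or more libraries and were tested. The 9 that did not pass were Col6a4, Col6a5, Col6a6, Col13a1, Col19a1, Col22a1, Col24a1, Col25a1 and Col28a1. Their values lay between 0.0725 and 1.07 RPKM, and none was listed at 0 in any library. A mean of 10 RPKM or more over the 6 libraries was reached by 17 genes, and another 17 lay between 1 and 10 RPKM. The type I chains Col1a1 and Col1a2, which form the main fibril collagen of sclera and corneal stroma, had the highest means at 220 and 211 RPKM. They were followed by Col3a1 at 68.5 RPKM, Col8a2 at 64.3 RPKM and Col4a1 at 62.1 RPKM, so that a fibrillar chain, a chain of the Descemet's membrane lattice and a basement membrane chain stood close together.

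**Figure D1:**
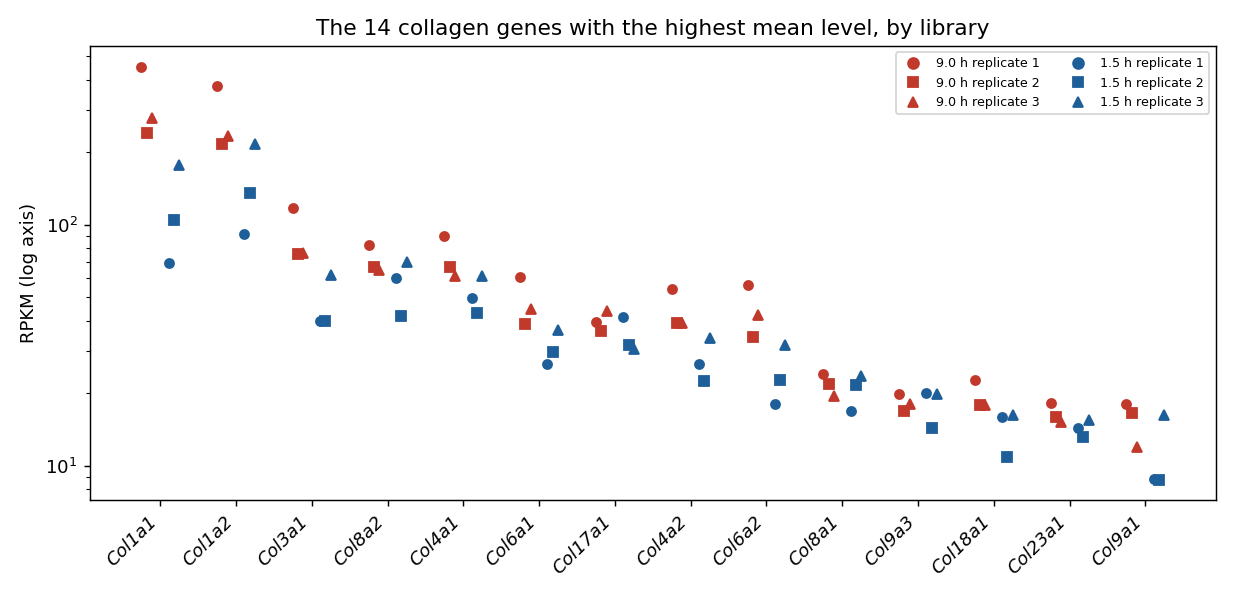
RPKM on a log axis of the 14 collagen genes with the highest mean, in order of that mean, with 1 point for each of 3 libraries at 9.0 h (red) and 3 at 1.5 h (blue). Col1a1 lies between 241 and 453 RPKM at 9.0 h and between 69.1 and 177 RPKM at 1.5 h, while genes such as Col17a1 and Col8a1 overlap between the times.

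The summed RPKM of the 43 genes was 1587, 1019 and 1076 at 9.0 h and 598, 624 and 916 at 1.5 h. The collagen sum was thus higher in each 9.0 h library than in each 1.5 h library, with 9.0 h replicate 1 far above and 1.5 h replicate 3 close to the 9.0 h libraries. As a share of the estimated reads, collagens took 0.900%, 0.576% and 0.607% at 9.0 h and 0.337%, 0.353% and 0.514% at 1.5 h. Col1a1, Col1a2 and Col3a1 together made up 59.6%, 52.5% and 54.5% of the collagen sum at 9.0 h, and 33.6%, 44.9% and 49.6% at 1.5 h. In bulk RNA of a whole eye, a different number of cells of a type and a different amount of RNA per cell cannot be told apart.

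No collagen gene passed the test between the times. By limma across 13490 genes with Benjamini-Hochberg adjustment at 0.05, 0 of the 34 tested collagen genes were called higher or lower, and 20 genes of all tested (0.148%) were called higher at 9.0 h and 10 (0.0741%) lower. The lowest adjusted p of a collagen gene was 0.139 (Col1a1). At an unadjusted p under 0.05, 16 of 34 collagen genes (47.1%) were higher at 9.0 h and 0 lower, against 6.47% of all tested genes higher and 4.58% lower. In 12 of 34 genes (35.3%) all 9.0 h libraries lay above all 1.5 h libraries, against 9.78% of tested genes, and in 0 they lay below, against 8.41%. The mean log2 difference was positive for 31 of 34, against 49.4% of tested genes. The exceptions were Col7a1, Col20a1 and Col27a1. Genes of a matrix vary together from library to library, so these counts are not independent observations.

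The count of calls depended on 1 library. Without 1.5 h replicate 1, 14 of 34 collagen genes (41.2%) were called higher at 9.0 h, against 669 of all tested genes (4.96%), and 1245 genes were called in either direction. These 14 were Col1a1, Col1a2, Col2a1, Col3a1, Col4a1, Col4a2, Col5a1, Col6a1, Col6a2, Col11a1, Col11a2, Col14a1, Col16a1 and Col18a1. Leaving out any other library gave 0 collagen calls. The standard errors of Col1a1, Col1a2 and Col3a1 were 0.17, 0.17 and 0.16 without 1.5 h replicate 1. With all 6 libraries they were 0.34, 0.30 and 0.22. The 14 calls rest largely on a spread shared over all genes, so their p-values do not measure the spread of each gene alone. For 27 of the 34 genes the difference stayed positive whichever library was left out, and for the other 7 it changed sign with at least 1 library. The same share of all tested genes is not given here.

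The 6 libraries did not contribute evenly. The library 9.0 h replicate 1 had the highest value of 28 of the 34 genes, which was the case for 16.7% of all tested genes. The lowest value was in 1.5 h replicate 2 for 22 genes and in 1.5 h replicate 1 for 11, against 18.9% and 27.0% of all tested genes. None of the 34 tested collagen genes had its lowest value in a 9.0 h library. Of all tested genes, 6.15%, 12% and 18.3% had it in 9.0 h replicates 1, 2 and 3. Of the 9 untested collagen genes, Col6a4 and Col28a1 had their lowest value in a 9.0 h library. The median deviation of the fibrillar genes from their mean over the 6 libraries was 0.79, 0.19 and 0.05 on the log2 scale at 9.0 h and -0.50, -0.58 and -0.01 at 1.5 h. That of all tested genes stayed between -0.03 and 0.07. The libraries 9.0 h replicate 2, 9.0 h replicate 3 and 1.5 h replicate 3 were on this measure closer to each other than to the rest of their own time.

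**Figure D2:**
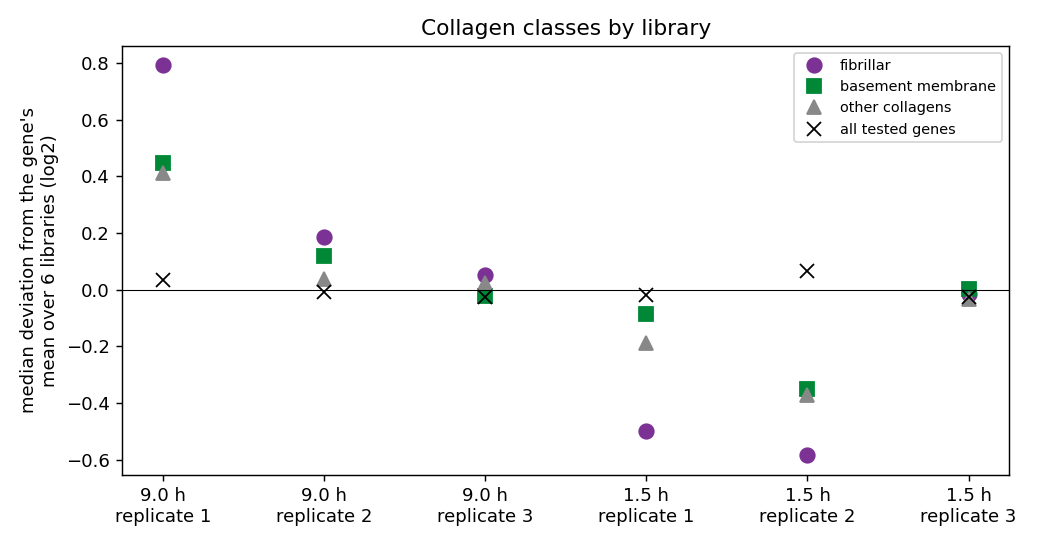
Median log2 deviation from the mean of the 6 libraries, for fibrillar, basement membrane and other collagen genes and for all tested genes, 1 point per library. The fibrillar median is 0.79 in 9.0 h replicate 1 and -0.58 in 1.5 h replicate 2, and all tested genes stay near 0.

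By class, the fibrillar genes had the highest median. Their median log2 difference, 9.0 h minus 1.5 h on the log2(RPKM + 0.1) scale, was 0.74 over 10 genes, with a range of -0.03 to 1.52. The basement membrane genes had a median of 0.33 over 8 genes and the other collagens 0.34 over 16 genes, against -0.0031 over all tested genes. Whether the classes differ from each other was not tested. At an unadjusted p under 0.05 and higher at 9.0 h were 7 of 10 fibrillar genes, 4 of 8 basement membrane genes and 5 of 16 others, against 6.47% of all tested genes. The medians without 9.0 h replicate 1 were 0.55, 0.21 and 0.25 in the same order, and without 1.5 h replicate 1 they were 0.66, 0.31 and 0.37. Without 1.5 h replicate 3, the library with Y transcripts, they were 0.92, 0.40 and 0.48. Without 1.5 h replicate 2, the lowest library for most genes, they were 0.58, 0.20 and 0.23. The summed fibrillar RPKM was 999.9, 570.3 and 620.7 at 9.0 h and 228.7, 301.7 and 486.4 at 1.5 h.

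**Figure D3:**
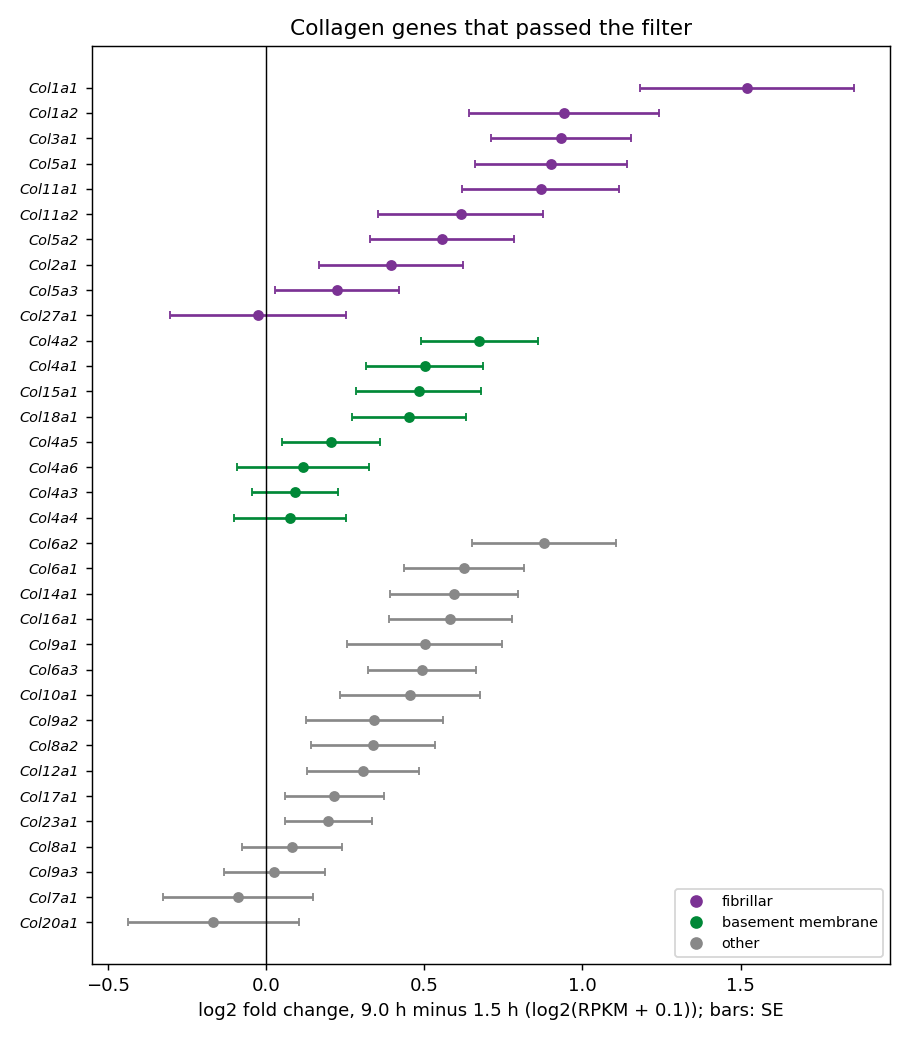
Log2 difference (9.0 h minus 1.5 h, RPKM + 0.1) of each tested collagen gene with its standard error, grouped by class, with a line at 0. Col1a1 stands highest at 1.52 ± 0.34 (SE), and Col7a1, Col20a1 and Col27a1 lie below 0; no gene passed the adjusted threshold.

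Among the fibrillar genes, Col1a1 encodes the alpha 1 chain of type I collagen, of which each common type I molecule holds a pair. It had 453, 241 and 277 RPKM at 9.0 h and 69.1, 105 and 177 RPKM at 1.5 h. All 9.0 h libraries were above all 1.5 h libraries, with means of 324 ± 113 and 117 ± 55.0 RPKM (SD, n = 3 each). The log2 difference was 1.52 ± 0.34 (SE) with a limma adjusted p of 0.139. It was 1.19 with an adjusted p of 1.15e-08 without 1.5 h replicate 1, and 1.25 with an adjusted p of 0.453 without 9.0 h replicate 1. The p of 1.15e-08 rests on a standard error of 0.17, set largely by the spread over all genes. Over the 6 fits that leave out 1 library each, the adjusted p of Col1a1 lay between 1.15e-08 and 0.617.

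Col1a2, which supplies the other type I chain, had 376, 217 and 233 RPKM at 9.0 h and 91.9, 136 and 215 RPKM at 1.5 h. The times were separated by a narrow gap between 9.0 h replicate 2 and 1.5 h replicate 3, and the log2 difference was 0.94 ± 0.30 (SE; limma adjusted p = 0.285). Col3a1, the chain of type III collagen found with type I in distensible tissue, had 118, 76.0 and 76.2 RPKM at 9.0 h and 39.9, 39.7 and 61.7 RPKM at 1.5 h. Its log2 difference was 0.93 ± 0.22 (SE; limma adjusted p = 0.151), again without overlap.

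Type V and type XI chains are incorporated into type I and type II fibrils and limit their diameter, type V being prominent in cornea. Col5a1 had 12.8, 7.95 and 8.38 RPKM at 9.0 h and 4.91, 3.79 and 6.86 RPKM at 1.5 h, without overlap, and a log2 difference of 0.90 ± 0.24 (SE; limma adjusted p = 0.192). Col5a2 had 18.6, 11.8 and 11.4 RPKM at 9.0 h and 7.82, 8.08 and 12.3 RPKM at 1.5 h, where 1.5 h replicate 3 lay above 9.0 h replicates 2 and 3. Col11a1, a vitreous and cartilage chain, had 6.10, 4.38 and 3.47 RPKM at 9.0 h and 1.84, 2.38 and 3.30 RPKM at 1.5 h, also without overlap. The log2 differences were 0.56 ± 0.23 (SE) for Col5a2 and 0.87 ± 0.25 (SE) for Col11a1, with limma adjusted p of 0.398 and 0.233.

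Col2a1 encodes type II collagen, the main fibril collagen of vitreous and cartilage. It had 7.25, 5.37 and 5.32 RPKM at 9.0 h and 6.40, 3.42 and 4.09 RPKM at 1.5 h, so that 1.5 h replicate 1 lay inside the 9.0 h range. Its log2 difference was 0.40 ± 0.23 (SE; limma adjusted p = 0.572), and 0.65 with an adjusted p of 0.00518 without 1.5 h replicate 1. It was 0.21 without 1.5 h replicate 2 and 0.25 without 9.0 h replicate 1, and the adjusted p reached 0.944. Col27a1, a fibrillar chain of cartilage, had the only negative mean difference among the tested fibrillar genes, with 1.83, 1.36 and 1.29 RPKM at 9.0 h and 2.18, 0.956 and 1.62 RPKM at 1.5 h. The 1.5 h libraries spanned the 9.0 h libraries. The log2 difference was -0.03 ± 0.28 (SE), and 0.23 without 1.5 h replicate 1, and whether it differs from the other fibrillar genes was not tested. The remaining tested fibrillar chains, Col5a3 and Col11a2, had log2 differences of 0.22 and 0.62.

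Basement membranes contain 3 kinds of type IV molecule, the ubiquitous one being made of Col4a1 and Col4a2. Col4a1 had 90.1, 67.1 and 61.4 RPKM at 9.0 h and 49.8, 43.0 and 61.0 RPKM at 1.5 h. The groups did not overlap, but 9.0 h replicate 3 and 1.5 h replicate 3 were nearly equal. Col4a2 had 54.0, 39.3 and 39.0 RPKM at 9.0 h and 26.5, 22.6 and 33.8 RPKM at 1.5 h. The log2 differences were 0.50 ± 0.19 (SE) for Col4a1 and 0.67 ± 0.19 (SE) for Col4a2, with limma adjusted p of 0.357 and 0.215.

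The other 4 type IV chains belong to more specialised basement membranes, and whether their differences are unlike those of Col4a1 and Col4a2 was not tested. Col4a3, whose chain joins those of Col4a4 and Col4a5 in the network of the glomerulus and of several eye membranes, had 8.07, 8.47 and 7.48 RPKM at 9.0 h and 7.24, 7.87 and 7.41 RPKM at 1.5 h. Its 9.0 h libraries overlapped the 1.5 h libraries, with a log2 difference of 0.09 ± 0.14 (SE). Col4a4 had 6.84, 5.72 and 5.39 RPKM at 9.0 h and 6.76, 4.59 and 5.80 RPKM at 1.5 h, a log2 difference of 0.08. Col4a5, which also joins Col4a6 in a further network, had 14.2, 11.5 and 10.5 RPKM at 9.0 h and 10.6, 9.41 and 11.2 RPKM at 1.5 h, a difference of 0.20. Col4a6 had 6.95, 4.99 and 4.30 RPKM at 9.0 h and 5.09, 3.93 and 5.81 RPKM at 1.5 h, a difference of 0.12. All 4 chains overlapped between the times, and the signs of Col4a4 and Col4a6 changed when 9.0 h replicate 1 was left out, to -0.02 and -0.07.

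Col18a1 and Col15a1 encode the core proteins of proteoglycans at basement membranes, and the end of the Col18a1 chain is released as endostatin. Col18a1 had 22.6, 17.9 and 17.9 RPKM at 9.0 h and 15.9, 10.9 and 16.2 RPKM at 1.5 h, without overlap. Its log2 difference was 0.45 ± 0.18 (SE; limma adjusted p = 0.393). Col15a1 was at 2.30 to 3.35 RPKM at 9.0 h and at 1.72 to 2.30 RPKM at 1.5 h, a difference of 0.48 with a small overlap.

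The beaded filaments of type VI collagen link cells to fibrils in cornea and sclera. Col6a1 had 60.6, 38.7 and 44.8 RPKM at 9.0 h and 26.3, 29.7 and 36.6 RPKM at 1.5 h. Col6a2 had 56.2, 34.3 and 42.0 RPKM at 9.0 h and 18.0, 22.7 and 31.6 RPKM at 1.5 h. Neither gene overlapped between the times, and the log2 differences were 0.62 ± 0.19 and 0.88 ± 0.23 (SE), with limma adjusted p of 0.255 and 0.189. Col6a3, the large remaining chain of the usual type VI molecule, also did not overlap, at a log2 difference of 0.49, while Col6a4, Col6a5, Col6a6 and the related Col28a1 were too low to be tested.

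FACIT collagens bind to the surface of fibrils, and 7 of 9 were tested. Col9a1, a chain of the type IX collagen that coats vitreous fibrils, had 18.1, 16.5 and 12.0 RPKM at 9.0 h and 8.81, 8.76 and 16.2 RPKM at 1.5 h. In 1.5 h replicate 3 it lay within the range of the 9.0 h libraries, and the log2 difference was 0.50 ± 0.25 (SE; limma adjusted p = 0.492). Col9a2 had 5.23, 4.03 and 4.83 RPKM at 9.0 h and 4.24, 2.57 and 4.49 RPKM at 1.5 h, a difference of 0.34 that was 0.0958 without 1.5 h replicate 2. Col9a3 had 19.9, 16.8 and 18.1 RPKM at 9.0 h and 20.1, 14.4 and 19.8 RPKM at 1.5 h, a difference of 0.03. The 3 chains of type IX thus overlapped between the times in all cases. Col20a1 had 2.97, 2.47 and 2.23 RPKM at 9.0 h and 4.62, 2.04 and 2.47 RPKM at 1.5 h, with the highest value in 1.5 h replicate 1. Its log2 difference of -0.17 became 0.17 without that library. Col12a1, Col14a1 and Col16a1 had differences of 0.31, 0.59 and 0.58, and only Col14a1 of these did not overlap between the times.

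Type VIII collagen forms the hexagonal lattice of Descemet's membrane, below the corneal endothelium. Col8a2 had 82.3, 66.9 and 64.6 RPKM at 9.0 h and 60.1, 41.8 and 69.9 RPKM at 1.5 h, with 1.5 h replicate 3 above 2 of the 9.0 h libraries and a log2 difference of 0.34 ± 0.20 (SE; limma adjusted p = 0.572). The difference was 0.13 without 1.5 h replicate 2. Col8a1 had 23.9, 21.8 and 19.6 RPKM at 9.0 h and 16.9, 21.5 and 23.5 RPKM at 1.5 h, a difference of 0.08. Both genes overlapped, and the remaining short-chain gene, Col10a1 of hypertrophic cartilage, had a difference of 0.46.

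Col17a1 and Col7a1 attach the corneal epithelium to the stroma, as a transmembrane collagen of hemidesmosomes and as the anchoring fibril. Col17a1 had 39.6, 36.2 and 43.8 RPKM at 9.0 h and 41.4, 31.7 and 30.5 RPKM at 1.5 h, a log2 difference of 0.22. Col7a1 had 1.63, 1.21 and 1.39 RPKM at 9.0 h and 2.13, 1.18 and 1.33 RPKM at 1.5 h, a difference of -0.09. Col23a1, another transmembrane collagen, had 18.2, 16.0 and 15.2 RPKM at 9.0 h and 14.3, 13.1 and 15.5 RPKM at 1.5 h, a difference of 0.20. All 3 overlapped between the times, with limma adjusted p of 0.668, 0.927 and 0.656.

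Chains of one molecule can be compared within a library, where the scaling of that library has no influence. Of 9 chain pairs, 4 had ratios that did not overlap between the times, and the exact permutation test gave p = 0.1 for each, the smallest that 3 against 3 libraries allow, and 0.225 adjusted over the pairs. The ratio of Col1a1 to Col1a2 was 1.21, 1.11 and 1.19 at 9.0 h and 0.752, 0.774 and 0.822 at 1.5 h. More reads per length came from Col1a1 than from Col1a2 in each 9.0 h library, and fewer in each 1.5 h library. The mean ratio was 1.17 ± 0.0500 at 9.0 h and 0.782 ± 0.0360 at 1.5 h (SD, n = 3 each), a log2 difference of 0.58. That difference lay between 0.55 and 0.61 when any 1 library was left out, and was 0.57 with trends in GC content and length removed.

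The ratio of Col4a1 to Col4a2 was 1.67, 1.71 and 1.58 at 9.0 h and 1.88, 1.91 and 1.81 at 1.5 h, a log2 difference of -0.17 (-0.20 to -0.14 without 1 library). The gene with the shared promoter stretch on the minus strand was thus the higher of the pair in each library, by a smaller factor at 9.0 h. Their annotated exons overlap by 22 bases, and whether reads were counted by strand is not given in the sources used here. The ratio of Col5a1 to Col5a2 was 0.690, 0.671 and 0.737 at 9.0 h and 0.627, 0.469 and 0.556 at 1.5 h, a difference of 0.35. The ratio of Col6a1 to Col6a2 was 1.08, 1.13 and 1.07 at 9.0 h and 1.46, 1.30 and 1.16 at 1.5 h, a difference of -0.26. Such separation was common among pairs of tested collagen genes. Of all 561 such pairs, the 9 chain pairs included, 216 (38.5%) did not overlap between the times. The 4 of 9 chain pairs are thus close to this background.

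The other 5 pairs overlapped. The log2 differences were 0.01 for Col4a3 to Col4a4, 0.09 for Col4a5 to Col4a6, 0.15 for Col9a1 to Col9a2, -0.26 for Col8a1 to Col8a2 and 0.49 for Col11a1 to Col2a1. Their exact permutation p-values were 1, 0.5, 0.6, 0.5 and 0.5. In 1.5 h replicate 1 the ratio of Col11a1 to Col2a1 was 0.287, far from the 0.696 and 0.806 of the other 1.5 h libraries, and without it the difference was 0.03. Without 1.5 h replicate 2, the difference of Col8a1 to Col8a2 was -0.0080. That of Col9a1 to Col9a2 ran from -0.0980 without 1.5 h replicate 1 to 0.35 without 9.0 h replicate 3, and that of Col4a3 to Col4a4 from -0.14 without 1.5 h replicate 1 to 0.20 without 1.5 h replicate 2.

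**Figure D4:**
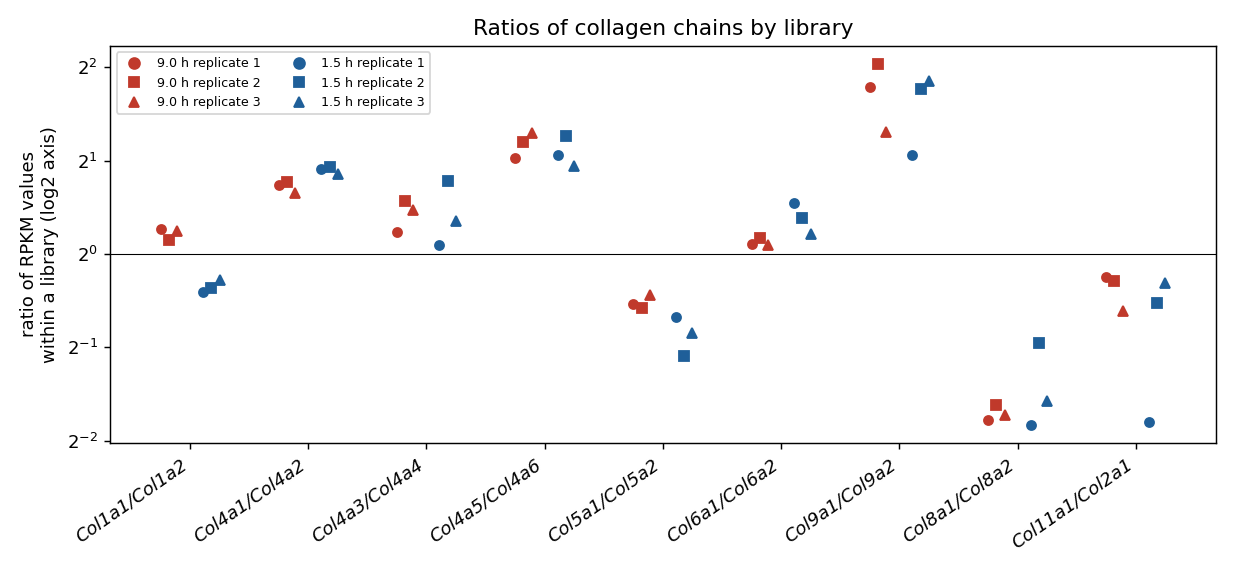
Within-library ratio of RPKM for 9 pairs of collagen chains on a log axis, 3 libraries at 9.0 h and 3 at 1.5 h. For Col1a1 to Col1a2 the 9.0 h libraries lie above 1 and the 1.5 h libraries below 1, and 5 of the 9 pairs overlap between the times.

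Enzymes and chaperones that act on collagen were set beside the chains, since a procollagen is hydroxylated, folded, trimmed and crosslinked before it enters a fibril. None of the listed genes was called with all 6 libraries. Of 20 genes for modification and folding, 17 had a positive difference, against 49.4% of all tested genes, and 4 were higher at an unadjusted p under 0.05, against 6.47%. The median log2 difference was 0.22, and 0.11 without 1.5 h replicate 1. Sparc, a collagen-binding matrix protein, had 1386, 1191 and 1100 RPKM at 9.0 h and 457, 909 and 1087 RPKM at 1.5 h, with the lowest value in 1.5 h replicate 1 and a log2 difference of 0.67 (limma adjusted p = 0.421). Serpinh1, the collagen chaperone HSP47, had 89.9, 72.4 and 78.0 RPKM at 9.0 h and 45.6, 63.8 and 83.7 RPKM at 1.5 h, and overlapped. P4hb, a subunit of prolyl 4-hydroxylase, had a difference of 0.20.

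Of 15 genes for procollagen trimming and crosslinking, 12 were tested, 9 had a positive difference and 1 was higher at an unadjusted p under 0.05, a share near the 6.47% of all tested genes. The median was 0.07, and 0.14 without 1.5 h replicate 1 and 0.03 without 9.0 h replicate 1. The gene past that p was Pcolce, the enhancer of the enzyme that removes the C-terminal propeptide, with 155, 119 and 141 RPKM at 9.0 h and 71.5, 113 and 114 RPKM at 1.5 h (log2 difference 0.50, limma adjusted p = 0.391). The crosslinking enzymes Tgm2 and Loxl1 had differences of 0.09 and 0.01. Of 10 collagen receptors, 5 were tested with a median of 0.14, which was -0.03 without 1.5 h replicate 1. They included Ddr1 at 0.32, Itgb1 at 0.14, the endocytic receptor Mrc2 at 0.56 and Ddr2 at -0.26. Of 16 basement membrane partners of the type IV network, 14 were tested, with a median of 0.12 and no unadjusted p under 0.05. The median was 0.0019 without 9.0 h replicate 1 and 0.20 without 1.5 h replicate 1. Nid1, Lamb2 and Agrn had differences of 0.07, 0.34 and -0.11. Without 1.5 h replicate 1, 2 of 20 genes for modification and folding and 1 of 12 for trimming and crosslinking were called. So were 2 of 5 collagen receptors and 1 of 14 basement membrane partners. These counts join both directions, as do the 1245 calls among all 13490 tested genes.

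Markers of tissues and cell types are given beside the collagens, and their part in the collagen values was not tested. Of 11 markers of stroma and sclera fibroblasts, all tested, 5 were positive, with a median of -0.03. Without 1.5 h replicate 1, where 14 collagen genes were called higher, the median was -0.21. In that fit 3 of the 11 were called in either direction, against 1245 of 13490 tested genes. Their summed RPKM was 1155 to 1210 at 9.0 h and 763.7 to 1604 at 1.5 h. Decorin (Dcn) had 650, 663 and 655 RPKM at 9.0 h and 460, 1042 and 679 RPKM at 1.5 h. It was thus highest in 1.5 h replicate 2, the library with the lowest value of 22 collagen genes. Fmod, another small leucine-rich proteoglycan of fibrils, had a difference of 0.58 (limma adjusted p = 0.398). Cartilage markers had 4 of 9 genes tested, a median of 0.30 that was 0.0133 without 1.5 h replicate 1, and sums of 60.9 to 90.2 RPKM at 9.0 h and 40.6 to 80.1 at 1.5 h. Of the 4, Matn3 was lower in each 9.0 h library than in each 1.5 h library, at a log2 difference of -0.79 ± 0.23 (SE; limma adjusted p = 0.242). Acan stayed at or below 0.144 RPKM and Matn1 was listed at 0 in 5 of 6 libraries. Of 5 bone markers 0 passed the filter, and Ibsp was listed at 0 in all 6 libraries.

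Lens markers had a median of 0.41 over 11 genes and sums of 122400 to 141400 RPKM at 9.0 h and 80280 to 122500 at 1.5 h. At an unadjusted limma p under 0.05, 5 of the 11 were higher at 9.0 h, against 6.47% of all tested genes. In 6 of the 11 all 9.0 h libraries lay above all 1.5 h libraries, against 9.78%. An excess over these shares was thus not particular to collagen genes. Skeletal muscle markers had a median of 0.31 over 10 genes and sums of 1403 to 1575 RPKM at 9.0 h and 809.7 to 1524 at 1.5 h. Both sums were lowest in 1.5 h replicate 1, and without it the medians were 0.26 for lens and 0.0509 for skeletal muscle markers. Medians were 0.0059 for 6 corneal epithelium genes, -0.25 for 4 of corneal endothelium and trabecular meshwork, -0.20 for 6 of smooth muscle and pericytes, 0.04 for 7 of endothelium and -0.49 for 5 of ciliary body and iris. They were -0.11 for 7 rod genes, -0.17 for 5 of the pigment epithelium and 0.08 for 4 of Schwann cells. Of the blood markers, Beta-s and Alas2 had log2 differences of 0.10 and -0.07. Beta-s had 41.9, 53.0 and 367 RPKM at 1.5 h. The 4 genes of corneal endothelium and trabecular meshwork ran from -0.43 (Slc4a11) to 0.84 (Angptl7), and neither of these overlapped between the times. The cornea was represented in every library, with corneal epithelium sums of 3766 to 4831 RPKM at 9.0 h and 3287 to 4833 at 1.5 h. Without 1.5 h replicate 1, the medians were -0.11 for endothelium, -0.23 for Schwann cells and -0.03 for corneal epithelium, each opposite in sign to that of all 6 libraries. The median of Beta-s and Alas2 was -0.43 without that library. The endothelial median was also negative, at -0.13, without 9.0 h replicate 1, as was that of corneal epithelium, at -0.0970, without 1.5 h replicate 3. The pigment epithelium and rod medians without 1.5 h replicate 1 were -0.32 and -0.19. These medians and sums are descriptions. No marker was called with all 6 libraries. Without 1.5 h replicate 1, calls were made in 3 ciliary body and iris genes and 2 corneal epithelium genes, besides the 3 of fibroblasts. The cartilage, lens, skeletal muscle, corneal endothelium and pigment epithelium lists held 1 each. These counts join both directions, as do the 1245 calls among all 13490 tested genes, and were not tested against that share.

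**Figure D5:**
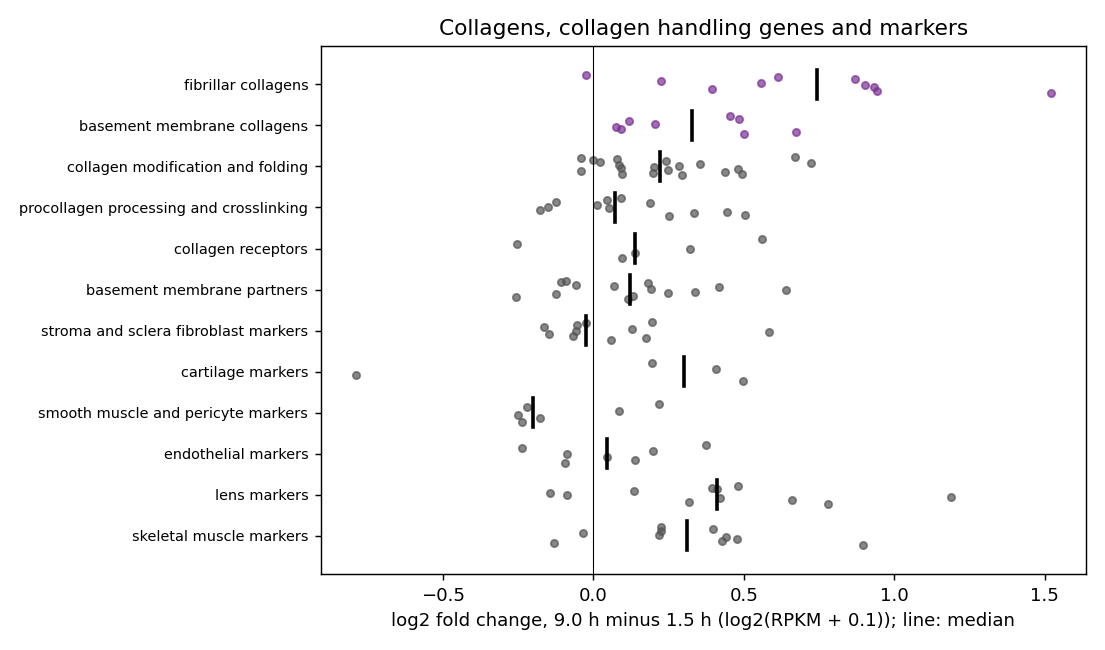
Log2 difference (9.0 h minus 1.5 h, RPKM + 0.1) of each tested gene of 2 collagen classes, the collagen pathway lists and 6 marker lists, 1 point per gene, with a bar at the median of each list. Medians are 0.74 for fibrillar collagens, 0.41 for lens markers and -0.03 for stroma and sclera fibroblast markers, and the genes of each list spread widely around them.

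The collagen transcripts were long and rich in G and C, and both properties went with the difference between the times over all genes. The tested collagen genes had a median GC content of 56.3% and a median length of 5794 bases, against 50.1% and 3387 bases for all tested genes. Over all tested genes, the median log2 difference over 5 equal bins of GC content, from low to high, was -0.12, -0.06, 0.0017, 0.06 and 0.11, and 18 of the 34 collagen genes lay in the top bin. Over 5 equal bins of length, from short to long, it was 0.09, 0.05, 0.02, -0.02 and -0.15, and 22 collagen genes lay in the top bin. With both trends removed in each library, 31 of 34 collagen genes had a positive difference, 20 had an unadjusted limma p under 0.05 and 0 were called. The median of all tested genes was -0.0036 in that fit. Over all genes it called 75, against 30 in the main fit. The share of all tested genes at an unadjusted p under 0.05 is not given for that fit. The 20 therefore cannot be read as a rise over the 16 of the main fit. Annotated exons of 13 of the 43 genes overlap those of another gene, by 5% or more only in Col4a3 and Col9a3, whose values may hold reads of the partner.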

How the data were processed

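RNA of 6 whole-eye pools was sequenced, 3 at each time. Per the labels' protocols, polyadenylated RNA was selected and random primers were used to make cDNA. The authors deposited 1 table of RPKM values per library. The unit was taken from the values. The tools GSNAP and HTSeq and the build mm9 are named in the submitters' processing notes. Tool versions, gene annotation, strandedness and the handling of multiply matching reads are not stated there. Reads that match several related genes could be split or lost, and RPKM scaled to all reads moves with abundant transcripts such as crystallins.

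From the deposited RPKM, total reads were estimated from whole-read steps of low values. Of these values, 74.2% to 78.1% were whole to within 0.1 read, against 8.64% to 14.8% at other totals. Transcript lengths and GC content came from GENCODE annotation of GRCm38 and were available for 43 collagen genes and 99.2% of tested genes. Their build differs from that of the reads.

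The filter kept genes that reached 1 RPKM in 3 or more libraries. The test was limma 3.58.1 in R 4.3.3 (eBayes with trend and robust settings, two-sided) on log2(RPKM + 0.1), 9.0 h minus 1.5 h, with Benjamini-Hochberg adjustment over 13490 genes. This scale understates changes of low genes. The fit was tested on simulated data. Chain ratios were compared by two-sided exact permutation tests in scipy 1.17.1. No 2 of the 6 libraries held identical values, and correlations between libraries lay between 0.948 and 0.989.

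Values in every library were given for the 4 highest genes of the fibrillar and basement membrane classes, the 2 highest of each other class, the 4 highest and 4 lowest log2 differences, called genes and chain pairs. In the pathway lists, the 3 genes with the highest means were named. Other genes were named after their values were seen. The gene classes, members, pathway lists and marker lists were chosen with earlier results of these data known. Alternatives were other pseudocounts, scalings, filters and fits, and leaving out each library.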

Additional observations from a re-analysis of the deposited data

How the results depend on the processing

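The count of 0 called collagen genes was the same with a pseudocount of 0.01 or 1, with no filter on low values, with all 3 other scalings, with eBayes without trend and robust settings, with GC and length trends removed (chosen after seeing the data) and with the replicate number as a block. Leaving out 1 library gave 0 to 14 called collagen genes, 14 without 1.5 h replicate 1 and 0 for each of the other 5; the cause was not tested. Over all genes, 30 were called, against 141 with the replicate block, 75 with GC and length trends removed, 15 with the median log2 ratio set to 0, 15 with quantile normalization and 1245, 61, 13, 4, 10 and 2 without 1.5 h replicates 1 to 3 and 9.0 h replicates 1 to 3. Correlations of the deviations of same-numbered libraries were 0.35, 0.48 and -0.21, and those of unlike-numbered libraries lay between -0.54 and 0.23. Replicates 1 and 2 thus had the highest correlations with their own number, while replicate 3 did not, and whether the numbers pair the libraries was not settled. The block left 0 collagen calls, with a lowest limma adjusted p of 0.0583 (Col5a1). The class medians moved by less than their spread under every setting run. Equal sums outside the crystallins moved the median of all tested genes to -0.08, where 29 collagen genes were positive, against 31 in the other scalings. The sign turned for genes near 0: Col4a4 to -0.0058 and Col9a3 to -0.0555 with equal sums outside the crystallins, Col9a3 to -0.0065 and Col27a1 to 0.0016 with quantile normalization, and Col9a3 to -0.0892 and Col27a1 to 0.0032 with GC and length trends removed. Without 1 library, the range was -0.0710 to 0.20 for Col4a4, -0.0743 to 0.27 for Col4a6, -0.25 to 0.15 for Col7a1, -0.0539 to 0.18 for Col8a1, -0.13 to 0.11 for Col9a3, -0.40 to 0.17 for Col20a1 and -0.33 to 0.23 for Col27a1. Leaving out 1 library moved further named genes by over 1.5 times without a change of sign: Col2a1 to 0.21 and Col8a2, Col9a2 and Col18a1 to 0.13, 0.0958 and 0.27 without 1.5 h replicate 2, Col4a5, Col5a2 and Col23a1 to 0.0826, 0.33 and 0.12 without 9.0 h replicate 1, Col4a3 to 0.0493 and 0.14 without 9.0 h replicates 2 and 3, Col9a1 to 0.79 without 1.5 h replicate 3, and Col17a1 to 0.35 and 0.13 without 1.5 h replicates 1 and 3. Depth limited the low genes: Col10a1, the lowest tested, rested on about 37 reads in 1.5 h replicate 2 and 194 in 9.0 h replicate 1.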
